A study of Mus musculus with 32 samples.

Results

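Genes of cholesterol synthesis were followed in YUMM3.3 cells, a *Braf* mutant mouse melanoma cell line kept in serum-containing medium, under Interferon-γ (IFN-γ) and with time in culture. The 7 genes were chosen by name, as enzymes and a regulator of the pathway that the transcription factor SREBP2 controls: *Hmgcs1*, *Idi1*, *Fdps*, *Fdft1*, *Sqle*, *Lss* and *Insig1*. All 7 were found by Ensembl identifier among the 12451 genes of the count table. None of them encodes a receptor for cholesterol uptake, and genes of uptake were read beside them from a longer list. The experiment had 8 groups of 4 wells each, 32 wells in all. At 4 hrs and again at 12 hrs there were untreated cells, cells with Activin-A (40 ng/ml), a ligand of the TGF-β family, cells with IFN-γ (20 ng/ml), and cells with both factors. The Activin-A dose is the one in the paper's methods, and the paper's figure legends give a higher dose. Polyadenylated RNA was read by BRB-seq, in which cDNA is barcoded by well, pooled and sequenced from the 3′ end, so that levels can be compared between wells for a gene but not between genes. The wells were separate cultures of 1 line, and p-values here measure the spread between such wells and not between independently derived lines. In bulk RNA from a well, a change in every cell and a larger change in some of the cells cannot be told apart.

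Cells make cholesterol from acetyl-CoA by way of mevalonate, farnesyl diphosphate and squalene. When membranes of the endoplasmic reticulum are poor in sterol, SCAP carries SREBP2 to the Golgi, where proteases free its transcription factor domain, and genes of the pathway are transcribed together. When sterol is plentiful, INSIG proteins hold SCAP back, and in macrophages and fibroblasts interferons are known to lower the pathway, in part through oxysterols made by the enzyme CH25H. In melanocytes and melanoma cells the same pathway supplies membrane cholesterol and the isoprenoid groups that anchor small GTPases.

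The labels were checked against genes that the factors are known to induce. *Irf1*, a transcription factor induced by IFN-γ, was at 42.3 ± 1.51 CPM (counts scaled to library size by TMM, mean ± SD, n = 4) in untreated cells and at 783 ± 19.2 CPM with IFN-γ at 4 hrs. *Pmepa1*, a target of Activin-A's Smad proteins, rose from 56.0 ± 8.53 to 327 ± 34.3 CPM with Activin-A at 4 hrs. All 9 melanocyte markers looked for were in the table, from *Pmel* at 124 CPM on average down to *Tyr* at 12.5, *Mitf* at 7.60, *S100b* at 7.41 and *Mc1r* at 4.93 CPM. Of the markers of neural crest type melanoma, *Axl* and *Sox9* averaged 1029 and 113 CPM, and *Ngfr* was not in the table. No endothelial or epithelial marker looked for was in it, and of 6 hematopoietic markers only *Ptprc* (0 to 5 counts per well) and *Cd68* (0 to 13 counts, 5.96 CPM on average) were. Of 4 fibroblast markers *Lum* was not in the table, *Dcn* had 0 to 8 counts, and *Pdgfra* and *Col1a1* averaged 13.0 and 39.1 CPM. Totals ranged from 654539 to 1455074 counts per well. Replicate 1 of Activin-A at 4 hrs stood apart from the wells of its group, with a chi-squared per gene of 2.45 to 2.89 against at most 1.54 in other pairs of the same group, and with 2.14% of its counts in mitochondrially encoded genes against 1.08% to 1.54% elsewhere. Of the results below that share a fit with it, no call of a member was lost without it.

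Positions are those of GENCODE M21 on GRCm38, whereas the submitters' processing notes name GRCm39, and the count table itself holds identifiers only. *Hmgcs1* (ENSMUSG00000093930) lies at chr13:119690379-119708260 on the plus strand, *Idi1* (ENSMUSG00000058258) at chr13:8885501-8892451 on the plus strand and *Fdps* (ENSMUSG00000059743) at chr3:89093588-89101959 on the minus strand. *Fdft1* (ENSMUSG00000021273) lies at chr14:63145150-63179578 on the minus strand, *Sqle* (ENSMUSG00000022351) at chr15:59315077-59331192, *Lss* (ENSMUSG00000033105) at chr10:76531588-76557138 and *Insig1* (ENSMUSG00000045294) at chr5:28071363-28078662, these last 3 on the plus strand. Reads of some members may be shared with copies elsewhere in the genome. *Fdps* had 6 annotated pseudogene copies with at least 95% identity over at least 90 bases of a transcript, the longest of 1066 bases. *Idi1* had 2 copies, the longest of 684 bases at 100% identity, *Fdft1* and *Insig1* 1 each, and *Hmgcs1*, *Sqle* and *Lss* none. The matches of *Idi1* and *Fdps* reached the 3′ end of the transcript, where BRB-seq reads lie. The copy of *Fdft1* had a longest match of 1249 bases at 97.4% identity, and its nearest match lay 2 bases from that end. Genes that overlap members can share reads too. On its own strand *Fdps* is overlapped over 7512 bases by *Gm43738*, annotated as protein-coding. On the opposite strand *Lss* is overlapped over 11268 bases by *4930483K19Rik*, *Hmgcs1* over 6190 bases by *Gm48342* and *Idi1* over 323 bases by *Gm48574*. The *Fdft1* gene overlaps *Ctsb*, which encodes the lysosomal protease cathepsin B on the opposite strand, by 774 bases, and the handling of strand and of shared reads is not given in the sources used here. The levels of *Fdps* and *Idi1*, both low, and of *Fdft1* may therefore leave out reads or hold those of others, which was not tested.

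RefSeq's promoter table for GRCm38.p6 held entries for 4 of the 7 genes, *Hmgcs1*, *Lss*, *Insig1* and *Idi1*. The *Idi1* stretch is not printed since its counts allowed no test. The other 3 are shown because SREBP2 is known to act next to the start sites of its targets, together with NF-Y at CCAAT boxes. Both strands of the 250 bases before each start were searched for CACNCCAC, the letters of a sterol regulatory element, for the E-box CACGTG and for CCAAT. Capitals mark the matches, which read ATTGG where CCAAT is on the other strand, and no marked match overlaps another.
*Hmgcs1*, chr13:119690101-119690350, plus strand: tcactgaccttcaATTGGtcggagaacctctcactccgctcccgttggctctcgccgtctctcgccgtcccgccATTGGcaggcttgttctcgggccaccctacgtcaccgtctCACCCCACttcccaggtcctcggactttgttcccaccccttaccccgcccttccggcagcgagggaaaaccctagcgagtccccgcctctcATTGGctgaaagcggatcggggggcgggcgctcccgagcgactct
*Lss*, chr10:76531355-76531587, plus strand: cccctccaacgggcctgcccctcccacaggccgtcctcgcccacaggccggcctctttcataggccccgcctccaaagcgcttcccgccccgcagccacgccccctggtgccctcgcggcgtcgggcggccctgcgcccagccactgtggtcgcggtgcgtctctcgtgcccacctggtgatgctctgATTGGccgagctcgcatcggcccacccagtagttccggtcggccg
*Insig1*, chr5:28071162-28071362, plus strand: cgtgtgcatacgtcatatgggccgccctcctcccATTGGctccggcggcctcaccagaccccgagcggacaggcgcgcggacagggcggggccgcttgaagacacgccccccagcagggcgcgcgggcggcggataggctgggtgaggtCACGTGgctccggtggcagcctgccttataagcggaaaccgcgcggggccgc
The stretches of *Lss* and *Insig1* end at the base before the GENCODE start of the gene and are shorter than 250 bases. In *Hmgcs1* the letters CACCCCAC lay 136 to 129 bases before the RefSeq start, with 3 CCAAT matches in the same window. *Lss* had 1 CCAAT match and neither CACNCCAC nor CACGTG. *Insig1* had an E-box 101 bases before its start, 1 CCAAT match, and a CACNCCAC match 9 bases before the start, beyond the stretch shown. *Idi1* had 2 CCAAT matches and neither CACNCCAC nor CACGTG. Of 32851 promoters searched in the same way, 5.29% held CACNCCAC, 6.02% held CACGTG and 33.9% held CCAAT. The GC box GGGCGG and the GAS type motif TTCNNNGAA were searched too and are not marked. GGGCGG was found before all 4 starts and in 32.7% of the 32851 promoters. TTCNNNGAA was found before none of the 4 and in 7.02% of the 32851. These matches are letters in a window, and binding was not measured.

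6 of the 7 genes passed the filter on low counts and were tested in every comparison. *Idi1*, the isomerase that makes dimethylallyl diphosphate, did not pass the filter on low counts. It had between 0 and 3 counts in each of the 32 wells, at or below the floor of 3 counts, which corresponds to 2.06 to 4.58 CPM at these depths, so that no difference in *Idi1* was detectable. Over all wells *Hmgcs1*, the synthase that forms HMG-CoA, ranged from 123 to 217 CPM and *Sqle*, the squalene epoxidase, from 123 to 186 CPM. *Fdft1*, the squalene synthase, ranged from 89.9 to 156 CPM and *Insig1*, the anchor of SCAP, from 56.8 to 111 CPM. *Lss*, the lanosterol synthase, ranged from 24.6 to 68.1 CPM, and *Fdps*, which makes farnesyl diphosphate, from 5.77 to 27.2 CPM, or 6 to 34 counts. The highest of the 8 group means was between 1.31 times (*Insig1*) and 1.79 times (*Lss*) the lowest in these 6 genes.

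In 3 of the genes the group means were ordered by time. For *Fdps*, *Fdft1* and *Lss* each of the 4 group means at 12 hrs was above each of the 4 at 4 hrs, although for *Fdps* the margin was small, and its fitted log2FC over time with Activin-A was -0.06 (95% interval -0.56 to 0.43). *Fdft1* went from 98.8 ± 7.73 CPM in untreated cells at 4 hrs through 102 ± 8.04 (Activin-A), 111 ± 5.91 (both) and 113 ± 3.96 (IFN-γ) at 4 hrs to 130.3 ± 7.76 (untreated), 133 ± 19.7 (Activin-A), 134.5 ± 6.35 (both) and 135 ± 7.99 (IFN-γ) at 12 hrs (SD, n = 4). The step from IFN-γ at 4 hrs to untreated cells at 12 hrs was the only pair of neighbours in that order without a shared range of wells. *Lss* was lowest with IFN-γ at 4 hrs, at 32.9 ± 5.36 CPM, and highest in untreated cells at 12 hrs, at 58.8 ± 10.9 CPM. *Hmgcs1* was lowest in untreated cells at 4 hrs, at 151 ± 20.9 CPM, and highest with Activin-A at 12 hrs, at 202.5 ± 9.80 CPM. *Sqle* ran from 130.2 ± 9.49 CPM with both factors at 4 hrs to 177 ± 7.32 CPM in untreated cells at 12 hrs, with IFN-γ at 12 hrs, at 145 ± 10.5 CPM, among the groups of 4 hrs. *Insig1* ran from 67.4 ± 3.77 CPM with IFN-γ at 4 hrs to 88.5 ± 12.8 CPM with Activin-A at 12 hrs. In these 4 genes and in *Fdps*, the wells of every pair of neighbours overlapped.

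**Figure D1:**
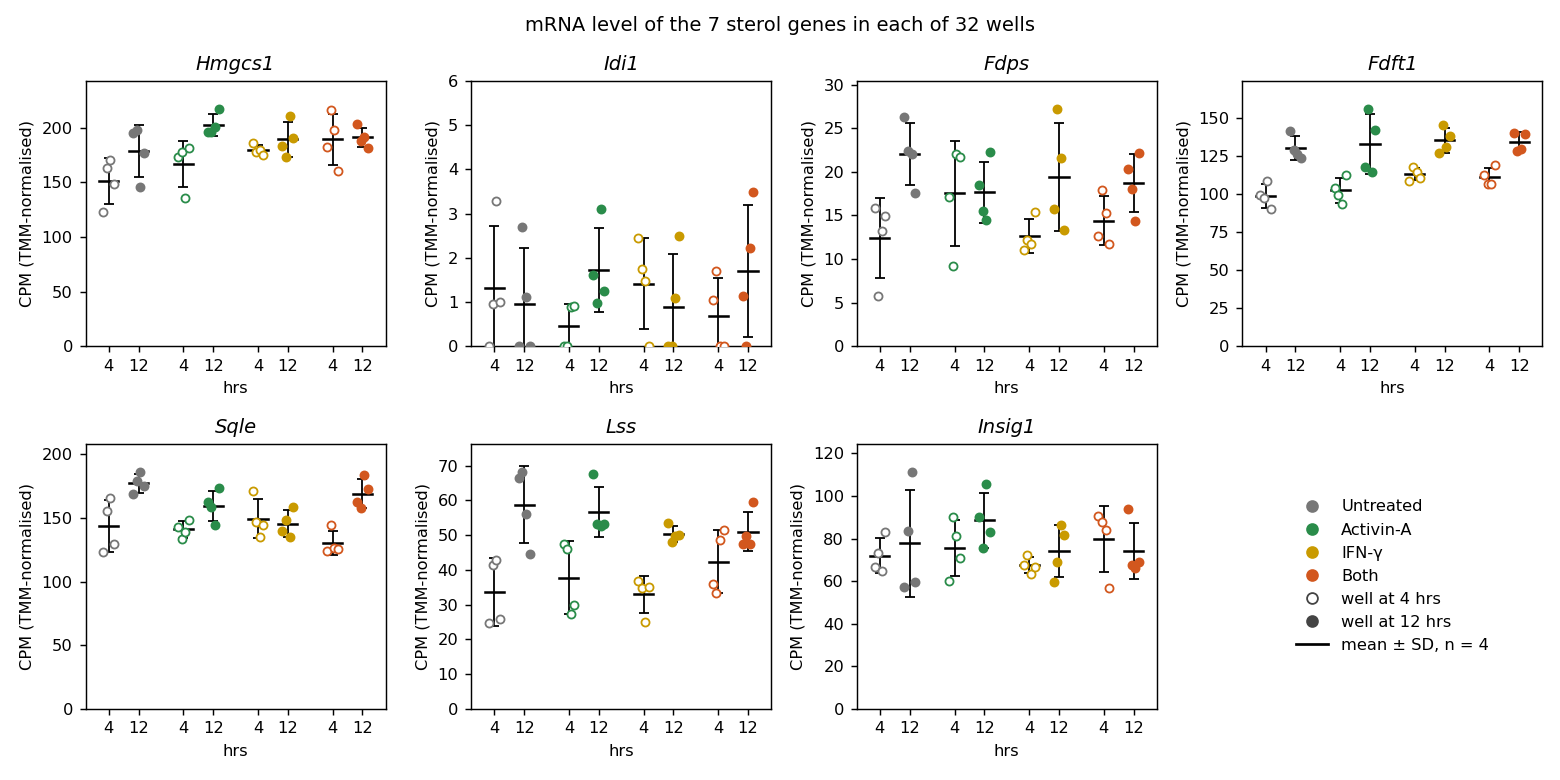
TMM-normalised CPM of each of the 7 genes (a panel each, linear axis from 0) in the 32 wells, by treatment (colour) and time (open 4 hrs, filled 12 hrs), with mean ± SD of 4 wells. The 12 hr wells of *Fdft1* and *Lss* lie mostly above the 4 hr wells, *Sqle* with IFN-γ at 12 hrs lies below untreated *Sqle* at 12 hrs, and *Idi1* stays at 0 to 3 counts.

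With IFN-γ alone, the members changed little against untreated cells. At 4 hrs 0 of the 6 tested members were DEGs (adjusted p under 0.05 in edgeR's two-sided quasi-likelihood test with Benjamini-Hochberg adjustment over all genes tested), where 5.06% of 9137 genes were. DESeq2's Wald test also called 0, and 1 member, *Hmgcs1*, had an unadjusted p under 0.05 in edgeR. *Hmgcs1* was at 123, 164, 170.2 and 149 CPM in the 4 untreated wells and at 186, 178, 179 and 175 CPM in the 4 IFN-γ wells. The IFN-γ wells all lay above the untreated ones, with a log2 fold change (log2FC) of 0.26 (SE 0.10, 95% interval 0.05 to 0.47, edgeR adjusted p = 0.188). *Fdft1* was likewise higher in every IFN-γ well, with a log2FC of 0.21 (95% interval -0.01 to 0.42, edgeR adjusted p = 0.395). *Sqle*, *Fdps*, *Lss* and *Insig1* overlapped between the groups, at log2FC of 0.07, 0.05, 0.02 and -0.07. The 95% intervals of the members other than *Fdps*, *Lss* included (-0.40 to 0.43), exclude a change of 0.50 on the log2 scale in either direction at this time point, and that of *Fdps* (-0.56 to 0.66) does not.

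At 12 hrs *Sqle* was the only member called with IFN-γ, 1 of 6, where 9.25% of 8971 genes were called, 2.82% as lower and 6.43% as higher. The enzyme makes squalene epoxide, the substrate of LSS. Its 4 untreated wells were at 169, 179, 186 and 175 CPM, and its 4 IFN-γ wells were at 139, 148, 135 and 159 CPM. All IFN-γ wells were below all untreated wells, at 0.83 times the untreated level (log2FC -0.28, SE 0.09, 95% interval -0.45 to -0.10, edgeR adjusted p = 0.0302). The call was near the threshold. With DESeq2 its adjusted p was 0.0909, and without replicate 2, 3 or 4 of the untreated wells or replicate 1 or 3 of the IFN-γ wells edgeR's adjusted p was between 0.0502 and 0.0999. The other 5 members had wells that overlapped and were not called, with log2FC of -0.26 for *Lss* (-0.55 to 0.03), -0.23 for *Fdps* (-0.69 to 0.24), -0.04 for *Insig1* (-0.32 to 0.24), 0.05 for *Fdft1* (-0.15 to 0.24) and 0.07 for *Hmgcs1* (-0.10 to 0.24), the ranges being 95% intervals. The median log2FC of the 6 members was -0.13 at 12 hrs and 0.06 at 4 hrs, against -0.01 for all genes tested at either time.

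Whether IFN-γ acted differently on the members at 12 hrs than at 4 hrs was tested directly. The difference of its effects called 0 of 6 members in edgeR and 0 of 4 in DESeq2, which gave no adjusted p for *Fdps* and *Lss*, and 0.579% of all genes were called. *Sqle*, at a difference of -0.34 on the log2 scale (SE 0.13, 95% interval -0.60 to -0.08), was the 1 member with an unadjusted p under 0.05 (edgeR adjusted p = 0.457). For *Hmgcs1* the difference was -0.18 and for *Lss* -0.26, with intervals that include 0.

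Addition of IFN-γ to cells that also received Activin-A gave no call among the members at either time. edgeR called 0 of 6 at 4 hrs, where 6.07% of genes were called, and 0 of 6 at 12 hrs, where 9.62% were. DESeq2 called 0 at both, and no member had an unadjusted p under 0.05. *Sqle* with Activin-A at 12 hrs was at 162, 159, 145 and 173 CPM, and with both factors at 163, 158, 184 and 172 CPM. These wells overlapped, and the log2FC of 0.09 (95% interval -0.09 to 0.27, edgeR adjusted p = 0.691) had the opposite sign from that without Activin-A. The interaction, the effect of IFN-γ with Activin-A less that without it, was 0.36 for *Sqle* at 12 hrs (SE 0.13, 95% interval 0.11 to 0.61). It was 1 member of 6 with an unadjusted p under 0.05, but its edgeR adjusted p was 0.446, 0 members were called by either tool, and 0.0111% of genes were. A difference of IFN-γ's effect on *Sqle* with and without Activin-A was therefore not shown. At 4 hrs no member had an interaction with an unadjusted p under 0.05 and neither edgeR nor DESeq2 called any (0 of 6, in edgeR 0% of all genes). The untreated and IFN-γ wells enter several of these comparisons, which are not independent of each other.

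**Figure D2:**
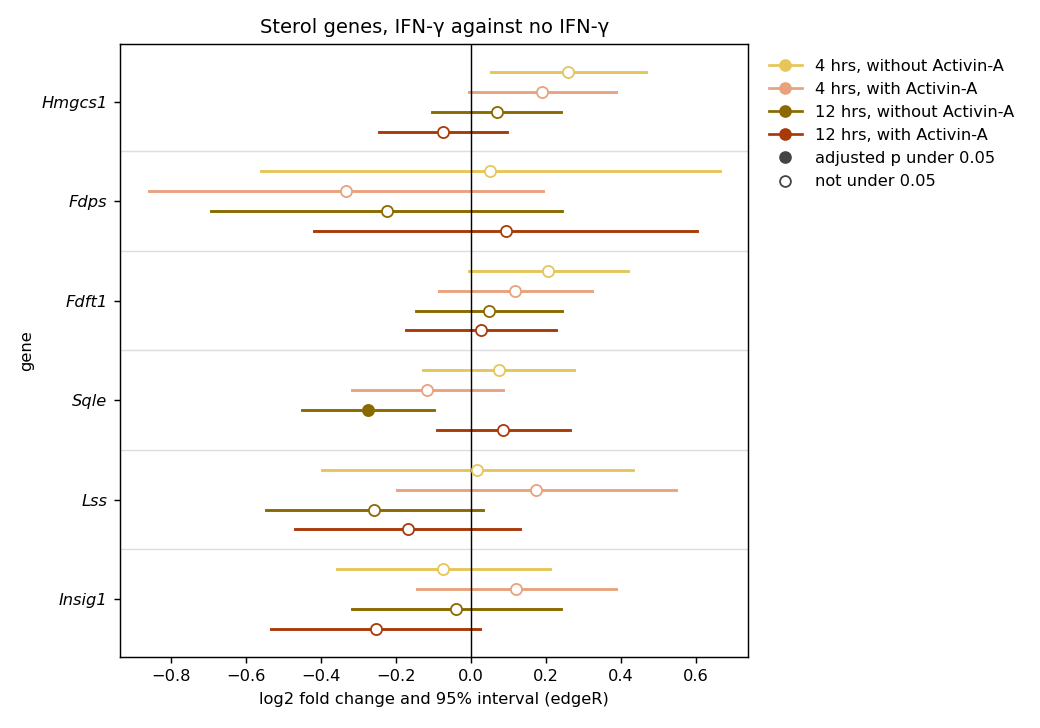
Log2 fold change with its 95% interval for IFN-γ against no IFN-γ in the 6 tested genes, without and with Activin-A, at 4 and 12 hrs (edgeR). Only *Sqle* at 12 hrs without Activin-A, at -0.28, is filled (adjusted p under 0.05), and with Activin-A it is at 0.09.

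Activin-A by itself gave no call among the members. At 4 hrs 0 of 6 were called by edgeR and by DESeq2, where 1.64% of genes were called in edgeR, and at 12 hrs 0 of 6 by both, where 2.41% of genes were. *Fdps* was the 1 member with an unadjusted p under 0.05 at 4 hrs, and there was none at 12 hrs. Its wells were at 15.8, 5.77, 13.2 and 15.0 CPM untreated and at 17.2, 9.18, 22.0 and 21.8 CPM with Activin-A at 4 hrs. They overlapped, and the log2FC was 0.55 (95% interval 0.00 to 1.11, edgeR adjusted p = 0.438). At 12 hrs the log2FC of *Fdps* was -0.36, and the difference of the Activin-A effects between the times was -0.91 (95% interval -1.62 to -0.19, edgeR adjusted p = 0.747). That comparison called 0 of 6 members with either tool, 1 with an unadjusted p under 0.05, and 0.0214% of all genes. Both factors against IFN-γ alone also called 0 of 6 members at 4 hrs (0.810% of genes) and at 12 hrs (1.03%) in edgeR. DESeq2 called 0 of 6 at 4 hrs and 0 of 5 at 12 hrs, where it gave no adjusted p for *Fdps*. *Sqle* at 12 hrs, with a log2FC of 0.21 (95% interval 0.03 to 0.39, edgeR adjusted p = 0.385), was the 1 member with an unadjusted p under 0.05 there, and at 4 hrs there was none.

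The members differed more with time in culture. In untreated cells 4 of the 6 tested members were higher at 12 hrs than at 4 hrs and none was lower, where 4.90% of 9332 genes were called, 2.33% as higher and 2.57% as lower. The 4 were *Lss*, *Fdft1*, *Sqle* and *Fdps*. All 6 members had a log2FC above 0, as did 49.6% of all genes, and their median was 0.36 against -0.00 for all genes. These genes were proposed with results of these data in view, so the count describes them and does not support a choice.

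*Lss*, which closes squalene epoxide into lanosterol, had the lowest adjusted p of the members. Its untreated wells were at 24.6, 41.4, 42.8 and 26.0 CPM at 4 hrs and at 66.5, 68.1, 56.1 and 44.4 CPM at 12 hrs. Every 12 hr well was above every 4 hr well, the nearest pair being 42.8 and 44.4 CPM. The level rose 1.79-fold (log2FC 0.84, SE 0.17, 95% interval 0.50 to 1.18, edgeR adjusted p = 0.000379). It was called in each of 15 alternative fits, with edgeR or DESeq2 adjusted p of at most 0.0103.

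*Fdft1*, which condenses farnesyl diphosphate into squalene, was at 99.3, 97.2, 109 and 89.9 CPM at 4 hrs. At 12 hrs its wells were at 141, 129, 127 and 124 CPM, again all above the earlier ones. The rise was 1.33-fold (log2FC 0.41, SE 0.10, 95% interval 0.21 to 0.61, edgeR adjusted p = 0.00496) and was called in each of the 15 alternatives. *Ctsb*, the neighbour with which *Fdft1* overlaps, was at 819 ± 56.8 CPM at 4 hrs and 837 ± 13.9 CPM at 12 hrs, with a log2FC of 0.03.

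*Sqle* and *Fdps* were called with less margin. *Sqle* was at 123, 156, 166 and 129.9 CPM in untreated cells at 4 hrs and at 169, 179, 186 and 175 CPM at 12 hrs. The ranges did not overlap, and the rise was 1.24-fold (log2FC 0.31, SE 0.09, 95% interval 0.13 to 0.49, edgeR adjusted p = 0.0282). With DESeq2 the adjusted p was 0.0677, and without replicate 1 or 4 at 4 hrs or replicate 2, 3 or 4 at 12 hrs edgeR's was between 0.0548 and 0.191. *Fdps* was at 15.8, 5.77, 13.2 and 15.0 CPM at 4 hrs and at 26.3, 22.4, 22.0 and 17.5 CPM at 12 hrs. Its ranges did not overlap either, and it rose 1.79-fold (log2FC 0.84, SE 0.26, 95% interval 0.33 to 1.36, edgeR adjusted p = 0.0386). This gene had few counts, 1 well at 4 hrs was far below the others, and without that well the log2FC was 0.60 with an edgeR adjusted p of 0.234. Without replicate 3 at 4 hrs or replicate 1, 2 or 3 at 12 hrs the adjusted p was between 0.0643 and 0.167, and with DESeq2 it was 0.104.

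*Hmgcs1* and *Insig1* were not called in untreated cells over time. *Hmgcs1* was at 123 to 170.2 CPM at 4 hrs and at 145 to 198 CPM at 12 hrs, so that the wells overlapped. Its log2FC was 0.26 (SE 0.10, 95% interval 0.07 to 0.45, edgeR adjusted p = 0.109), and without replicate 3 at 12 hrs, the lowest well of its group, it was 0.34 with an adjusted p of 0.0320. *Insig1* had a log2FC of 0.09 (95% interval -0.20 to 0.39), with wells between 57.2 and 111 CPM at 12 hrs against 64.8 to 82.9 CPM at 4 hrs.

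Under the treatments fewer members were called over time, although the signs were mostly positive. With Activin-A 2 of 6 rose, where 6.97% of genes were called, 3.33% as higher and 3.63% as lower. *Fdft1* went from 104, 99.5, 93.4 and 112 CPM to 118, 156, 115 and 142 CPM (log2FC 0.36, SE 0.10, edgeR adjusted p = 0.0112), and *Lss* from 47.5, 45.9, 27.3 and 29.9 CPM to 67.5, 53.2, 52.8 and 53.3 CPM (log2FC 0.61, SE 0.17, edgeR adjusted p = 0.0113). In both genes every later well was above every earlier well. The call of *Fdft1* was lost without replicate 3 at 4 hrs or replicate 2 at 12 hrs (edgeR adjusted p = 0.0627 and 0.138) and with only the compared groups in the fit (0.0611), and that of *Lss* without replicate 3 or 4 at 4 hrs or replicate 1 at 12 hrs (0.0756 to 0.112). *Hmgcs1* just missed the threshold at a log2FC of 0.28 (edgeR adjusted p = 0.0527), with no overlap between 136 to 181 CPM at 4 hrs and 196 to 217 CPM at 12 hrs. It was called with a filter of at least 10 counts in every sample (adjusted p = 0.0431) and without replicate 4 at 4 hrs (edgeR adjusted p = 0.0437).

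With IFN-γ 1 of 6 members was called over time, where 8.41% of genes were, 4.84% as higher and 3.57% as lower. That gene was *Lss*, which rose from 36.7, 34.9, 25.0 and 35.1 CPM to 53.4, 48.1, 49.7 and 49.9 CPM. The later wells were all above the earlier ones (log2FC 0.58, SE 0.18, 95% interval 0.22 to 0.94, edgeR adjusted p = 0.0300). The call was lost with DESeq2 (adjusted p = 0.0692) and without replicate 2, 3 or 4 at 4 hrs or replicate 1, 3 or 4 at 12 hrs (edgeR adjusted p = 0.0539 to 0.106). *Sqle* had a log2FC of -0.03 over time with IFN-γ (95% interval -0.22 to 0.16), beside 0.31 in untreated cells. The difference between these values is the one tested above, at -0.34 with an edgeR adjusted p of 0.457.

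With both factors *Sqle* was the 1 of 6 members called over time, where 7.10% of genes were, 3.69% as higher and 3.42% as lower. It rose from 124, 144, 127 and 125 CPM to 163, 158, 184 and 172 CPM. Each later well was above each earlier well (log2FC 0.37, SE 0.09, 95% interval 0.19 to 0.56, edgeR adjusted p = 0.00517), and the call was made in each of 15 alternatives. *Fdft1* lay above its 4 hr range in every 12 hr well also under IFN-γ and under the combination, at log2FC of 0.26 and 0.27, but was not called (edgeR adjusted p = 0.0888 and 0.0836). Its 4 changes over time thus lay between 0.26 and 0.41, with no overlap of wells in any treatment. For *Ctsb* the log2FC over time was 0.04 under Activin-A, -0.07 under IFN-γ and -0.20 under the combination, the last with an edgeR adjusted p of 0.0445. *Insig1* was not called in any treatment, at log2FC between -0.10 and 0.27.

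**Figure D3:**
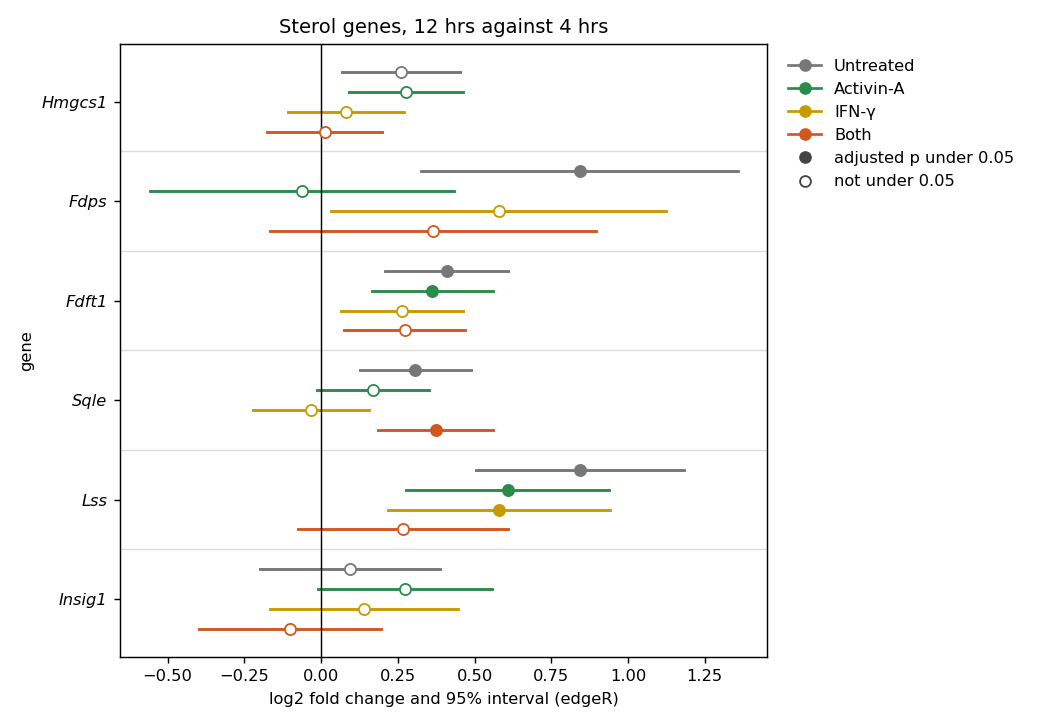
Log2 fold change with its 95% interval of the 6 tested genes at 12 hrs against 4 hrs, in untreated cells and with each treatment (edgeR). Filled points passed an adjusted p of 0.05: *Fdps*, *Fdft1*, *Sqle* and *Lss* in untreated cells, *Fdft1* and *Lss* with Activin-A, *Lss* with IFN-γ and *Sqle* with both factors.

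Other measures also moved with time. The summed level of 8 proliferation genes (scaled to the total of the well) was between 2289 and 2360 CPM in the untreated wells at 4 hrs and between 2001 and 2144 at 12 hrs, and their part in the members' change was not tested. Mitochondrially encoded genes held 1.32% to 1.43% of counts at 4 hrs and 1.22% to 1.33% at 12 hrs in these wells. The labels give no extraction or library batch, so that time after treatment and anything else that differed between the harvests cannot be told apart.

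The other enzymes of the pathway, from a list written with results of these data known, are shown in the order of their steps. Of 6 further enzymes up to farnesyl and geranylgeranyl diphosphate, 1 rose over time in untreated cells and none fell, with a median log2FC of 0.43, against -0.00 for all genes. It was *Acat2*, the acetyl-CoA acetyltransferase that begins the pathway, at 86.7 ± 7.53 CPM at 4 hrs and 143 ± 7.62 CPM at 12 hrs (log2FC 0.73, SE 0.11, edgeR adjusted p = 3.10e-07), with no overlap of wells. *Acat2* rose over time also under Activin-A (0.55), under IFN-γ (0.52) and under the combination (0.42), the last call lost without replicate 1 at 12 hrs (edgeR adjusted p = 0.0737).

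Of 10 enzymes after lanosterol, 3 rose in untreated cells over time and none fell, with a median of 0.19, where 2.33% of all genes rose and 2.57% fell. *Nsdhl*, which removes carbon in the demethylation of sterols, went from 38.5 ± 3.14 to 60.0 ± 4.84 CPM (log2FC 0.64, edgeR adjusted p = 0.00390). *Dhcr7*, the reductase that yields cholesterol from its precursor, went from 139 ± 12.7 to 179 ± 9.53 CPM (0.36, edgeR adjusted p = 0.00876). *Tm7sf2*, a sterol reductase with low counts, went from 10.2 ± 2.78 to 21.5 ± 5.72 CPM (1.02, edgeR adjusted p = 0.0248). *Acat2* and *Nsdhl* kept their calls in every alternative of this comparison. *Dhcr7* lost it without replicate 2 at 4 hrs (edgeR adjusted p = 0.0671), and *Tm7sf2* without replicate 1, 2 or 3 at 4 hrs or replicate 3 or 4 at 12 hrs (up to 0.110). *Cyp51*, the enzyme next to *Lss*, had a log2FC of -0.03 (95% interval -0.21 to 0.14), below the interval of *Lss* in the same comparison.

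Under the treatments the enzymes that changed over time were also higher at 12 hrs. Activin-A had 2 of the 6 earlier and 4 of the 10 later enzymes called as higher (3.33% of all genes), IFN-γ had 1 and 1 (4.84%), the combination had 2 and 1 (3.69%), and none was lower in edgeR. DESeq2 called 1 and 3 with Activin-A, 1 and 0 with IFN-γ, and 2 and 1 with the combination. With Activin-A the edgeR call of *Dhcr7* was made in 2 of 8 fits that left out 1 well. With IFN-γ it was made in 5 of 9 such fits and was lost with DESeq2. Against untreated cells at 12 hrs, Activin-A had 1 of the 10 later enzymes called lower by edgeR and none higher. DESeq2 called 0 there, and edgeR called 2.41% of all genes in either direction. This enzyme was *Dhcr7*, at 145 ± 8.52 CPM with Activin-A and 179 ± 9.53 CPM in untreated cells. The call was made in 2 of 8 fits that left out 1 well.

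With IFN-γ at 4 hrs 2 of the 10 enzymes after lanosterol were called in edgeR, 1 higher and 1 lower, where 5.06% of all genes were called. Of the 6 earlier ones edgeR and DESeq2 called 0, with 0 at an unadjusted p under 0.05. *Ebp*, the sterol isomerase, was higher, at 86.8 ± 11.3 against 56.6 ± 8.43 CPM (log2FC 0.61, SE 0.14, edgeR adjusted p = 0.00116), and was called in every alternative. *Hsd17b7*, a ketosteroid reductase, was lower, at 18.4 ± 6.52 against 30.7 ± 6.33 CPM (log2FC -0.69, SE 0.22, edgeR adjusted p = 0.0496), with overlapping wells, and was not called with DESeq2, with no filter on low counts, with replicate number as a block or when 6 of the 8 wells were left out in turn (adjusted p between 0.0509 and 0.235). At 12 hrs edgeR and DESeq2 called 0 of these enzymes, with 1 of the 6 and 2 of the 10 at an unadjusted p under 0.05 in edgeR. With Activin-A present, IFN-γ gave 0 calls at 4 hrs in either tool, with 2 later enzymes at an unadjusted p under 0.05.

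**Figure D4:**
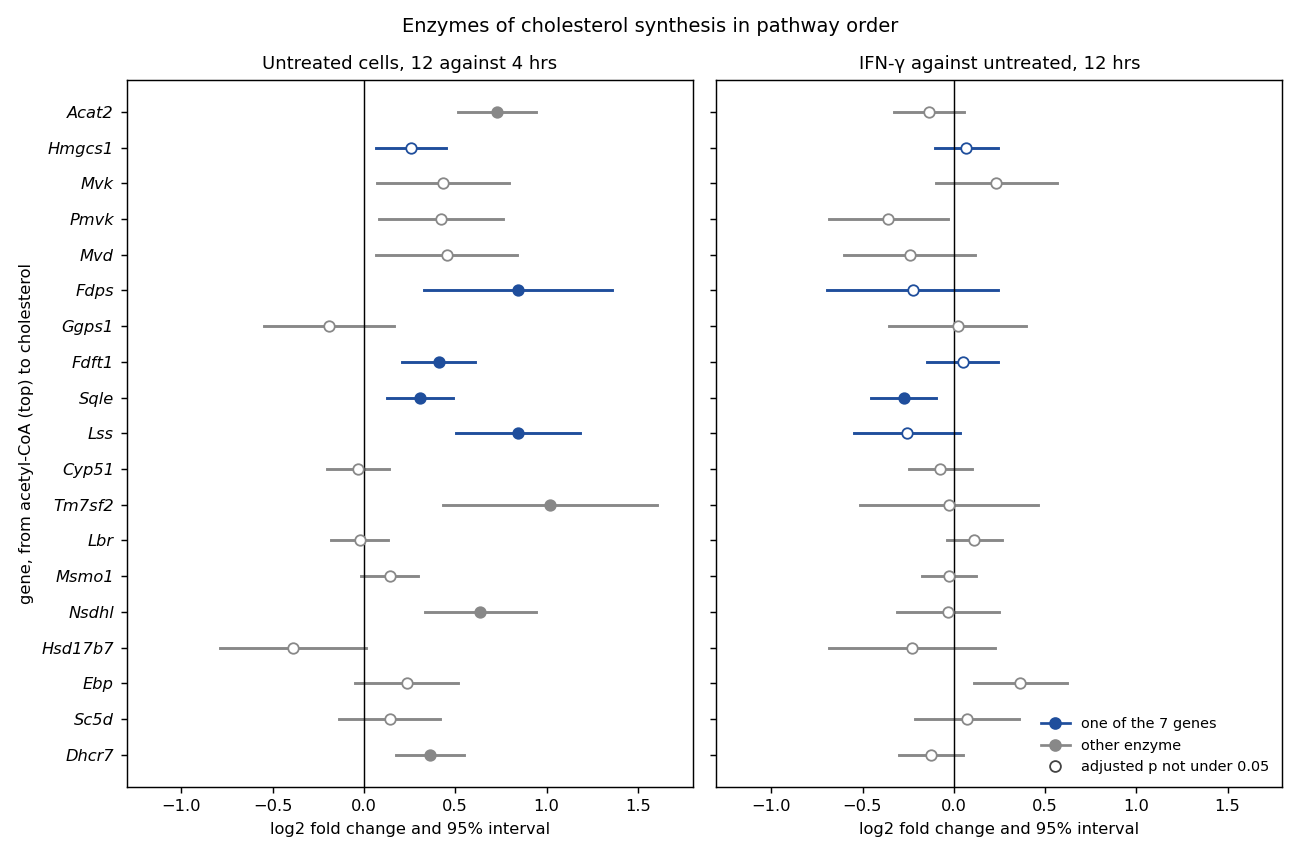
Log2 fold change with 95% interval of enzymes in pathway order from acetyl-CoA (top) to cholesterol, in untreated cells at 12 against 4 hrs (left) and for IFN-γ against untreated cells at 12 hrs (right), with the 5 tested member enzymes in blue. Filled points (adjusted p under 0.05) are *Acat2*, *Fdps*, *Fdft1*, *Sqle*, *Lss*, *Tm7sf2*, *Nsdhl* and *Dhcr7* on the left, all above 0, and *Sqle* on the right, below 0.

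Genes that control the pathway were read from the same set of lists. Of 9 genes of SREBP control, edgeR and DESeq2 called 0 with IFN-γ at 4 hrs, at 12 hrs and over time in untreated cells, with 1, 2 and 1 at an unadjusted p under 0.05 in edgeR and medians of 0.07, -0.06 and 0.03, where edgeR called 5.06%, 9.25% and 4.90% of all genes. *Srebf2*, which encodes SREBP2, was at 127 ± 15.2 CPM at 4 hrs and 144 ± 9.31 CPM at 12 hrs in untreated cells (log2FC 0.18, edgeR adjusted p = 0.427), and with IFN-γ its log2FC was 0.11 at 4 hrs and -0.02 at 12 hrs. *Srebf1*, the SREBP of fatty acid synthesis, had log2FC of -0.08 and -0.21 with IFN-γ and 0.16 over time. *Scap*, the escort protein, had 0.07, -0.06 and -0.08, and *Insig2*, the relative of *Insig1*, -0.08, 0.31 and -0.02. Over time with IFN-γ 1 of the 9 was called lower by edgeR and by DESeq2, where edgeR called 3.57% of all genes lower. For both factors against Activin-A at 12 hrs 1 was called higher by edgeR and 0 by DESeq2. There edgeR called 554 of 8971 genes higher, and 9.62% of all genes in either direction. Over time with both factors *Mbtps1*, the Golgi protease that cleaves SREBPs, was the 1 gene called higher (log2FC 0.33, edgeR adjusted p = 0.0445), where 3.69% of all genes were. DESeq2 called 0 genes of the list there, where edgeR had 2 at an unadjusted p under 0.05, and the edgeR call was lost when most single wells of the compared groups were left out. Of the 10 genes of sterol uptake and intracellular transport, edgeR called 0 with IFN-γ at 4 hrs, 0 over time in untreated cells and 2 with IFN-γ at 12 hrs, both higher, where 6.43% of all genes were. DESeq2 called 0, 0 (with no adjusted p for 1 gene) and 2, and at an unadjusted p under 0.05 edgeR had 0, 1 and 2. The called genes encode lysosomal proteins that release and export cholesterol taken up with lipoproteins. *Npc2*, the cholesterol carrier, was at 675 ± 48.1 CPM untreated and 814 ± 112 CPM with IFN-γ (log2FC 0.27, edgeR adjusted p = 0.000830), and *Lipa*, the acid lipase, at 51.6 ± 9.83 and 77.7 ± 7.99 CPM (log2FC 0.60, edgeR adjusted p = 0.000760). Both calls were made in every alternative of this comparison.

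Across the 32 wells the members varied together to different degrees, as a description in which points share their groups, depth and time. The log2 CPM of *Sqle* correlated with the mean of the other 6 members at a Pearson's r of 0.613, that of *Fdft1* at 0.609, of *Hmgcs1* at 0.515 and of *Lss* at 0.489. *Fdps*, *Insig1* and *Idi1*, of which *Fdps* and *Idi1* had the fewest counts, were at 0.252, 0.230 and 0.229. Among 8622 other genes with at least 10 counts on average, the 10 whose log2 CPM was most like the mean of the 7 members were *Asns* (r = 0.758), *Trib3*, *Aldh18a1*, *Gars*, *Nars*, *Cars*, *Acat2*, *Pced1b*, *Cth* and *Mthfd2* (0.719), where the range from the 5th to the 95th percentile of all genes was -0.45 to 0.45. *Mvd*, the decarboxylase of the mevalonate steps, ranked 12 at 0.718.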

How the data were processed

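RNA was measured in 32 wells by BRB-seq. The authors deposited raw counts per gene. The submitters' processing notes name STAR 2.7.10b, featureCounts, DESeq2 1.36.0 and GRCm39. The annotation release, the handling of UMIs, of shared reads and of strand are not given in the sources used here. Groups and replicate numbers came from the labels.

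Counts were normalised by TMM and tested with edgeR 4.0.16 (R 4.3.3; filterByExpr, glmQLFit, glmQLFTest), with the 16 wells of a time point for treatments and their interaction, and all 32 wells for comparisons over time. Benjamini-Hochberg adjustment ran over all genes tested. In all 16 comparisons were made. Log2 CPM used a prior count of 2. Intervals are 95%. Scripts were tested on simulated data. Alternatives were DESeq2 1.42.0, RLE normalisation, no filter, at least 10 counts in every sample, replicate number as a block, other sets of samples in the fit and leaving out each well. A fit without replicate 1 of Activin-A at 4 hrs, where that well was in no compared group, was chosen after seeing the data. Copies of member transcripts were sought with BLAST+ 2.17.0 in GENCODE M21.

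The members and gene lists were chosen with earlier results of these data known. Named genes are all members, the list genes that were called, the main regulators, and the 10 genes most like the members' mean. *Mvd*, *Cyp51*, *Scd1*, *Abca1*, *Lrp1* and *Ctsb* were added after their values were seen. Some genes of the lists are counted but not reported here by name.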

Additional observations from a re-analysis of the deposited data

Results flagged for a closer look

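In 4 of the 56 sets of 4 wells examined (7 genes in 8 groups), 1 well lay far from the other 3 by Dixon's criterion, which chance meets in about 1 in 20 sets. *Sqle* with both factors at 4 hrs had its highest well, replicate 2, at 144.4 CPM, with the next at 126.7 CPM. *Lss* with IFN-γ at 4 hrs had its lowest well, replicate 3, at 24.99 CPM, with the next at 34.87 CPM. *Lss* with Activin-A at 12 hrs had its highest well, replicate 1, at 67.47 CPM, with the next at 53.27 CPM. *Insig1* with both factors at 12 hrs had its highest well, replicate 1, at 93.74 CPM, with the next at 68.75 CPM. The wells lie in different groups, and none is the well of Activin-A at 4 hrs that stood apart over all genes.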

How the results depend on the processing

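Of the 9 calls of members, 3 were made in every alternative: *Lss* and *Fdft1* over time in untreated cells and *Sqle* over time with both factors. With DESeq2 the number of members called fell from 1 to 0 for IFN-γ at 12 hrs, from 4 to 2 over time in untreated cells and from 1 to 0 over time with IFN-γ. With only the compared groups in the fit it fell from 2 to 1 over time with Activin-A. Leaving out 1 well at a time gave 0 to 1 members for IFN-γ at 12 hrs, 2 to 4 over time in untreated cells, 0 to 2 over time with Activin-A and 0 to 1 over time with IFN-γ. *Hmgcs1* was gained over time with Activin-A under the filter of at least 10 counts (adjusted p = 0.0431). The cause was not tested.

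The signs that turned belonged to values not called. For IFN-γ at 4 hrs the log2FC of *Lss* was -0.0016 with DESeq2 and ran from -0.12 to 0.14 over the wells left out, and that of *Fdps* from -0.19 to 0.20. For IFN-γ at 12 hrs *Hmgcs1* ran from -0.011 to 0.12 and *Insig1* from -0.19 to 0.16. Over time in untreated cells *Insig1* ran from -0.11 to 0.24.

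With replicate number as a block, the members called were 1 for IFN-γ at 12 hrs, 4, 2, 1 and 1 over time (untreated, Activin-A, IFN-γ, both) and 0 elsewhere, as without it. Over all genes the block gave 429 calls over time in untreated cells, against 457. Deviations from group means correlated at a mean r of -0.00023 between wells of the same number and 8.07e-05 between others, so the numbers do not show a pairing.

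Over all genes DESeq2 called 295 over time in untreated cells (edgeR 457), 423 with Activin-A (650, and 423 also with only the compared groups in the fit), 514 with IFN-γ (785), 92 and 140 for Activin-A at 4 and 12 hrs (150 and 216), 46 and 59 for both factors against IFN-γ (74 and 92) and 569 for both factors against Activin-A at 12 hrs (863). Without 1 well, calls over time in untreated cells ran from 302 (replicate 1 at 12 hrs left out) to 526. Those for both factors against IFN-γ at 4 hrs ran from 47 (replicate 2 of IFN-γ or 4 of both factors, and nearly as low without replicate 1 of IFN-γ) to 134 (replicate 1 of Activin-A), and those for the difference of IFN-γ effects from 35 (untreated replicate 4 at 4 hrs) to 61, against 54. A filter of at least 10 counts in every sample left no value for *Fdps* in fits that include wells of 4 hrs. Few counts limit *Idi1*, with no more than 3 per well, and *Fdps*, with 6 to 34. Whether depth or reads shared with copies sets these counts was not tested.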

Other observations

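Some genes of fatty acid synthesis, which SREBP1 controls, changed with time. Of 10 on the list, 3 were higher at 12 hrs than at 4 hrs in untreated cells and none was lower (median log2FC 0.21), where 2.33% of all genes were higher and 2.57% lower. Over time 4 were higher with Activin-A (3.33% of all genes), 1 with IFN-γ (4.84%), and with both factors 1 was higher and 1 lower (3.69% and 3.42%). *Fads1*, a fatty acid desaturase, was at 107 ± 6.91 and 139 ± 18.1 CPM (0.37, edgeR adjusted p = 0.0165), *Scd2*, a stearoyl-CoA desaturase, at 665 ± 34.1 and 768 ± 48.5 CPM (0.21, edgeR adjusted p = 0.0275) and *Acss2*, an acetyl-CoA synthetase, at 5.06 ± 2.68 and 12.2 ± 4.51 CPM (1.28, edgeR adjusted p = 0.0372), the last with overlapping wells and with no adjusted p from DESeq2. Each of the 3 calls was lost without some wells, with adjusted p of up to 0.103, 0.185 and 0.241. With IFN-γ at 4 hrs edgeR and DESeq2 called 0 of the 9 tested, with 1 at an unadjusted p under 0.05 in edgeR. At 12 hrs 1 of 10 was called, where 2.82% of all genes were lower. This gene, *Scd2*, was lower in every well than in untreated cells, at 622 ± 36.9 CPM (log2FC -0.31, edgeR adjusted p = 2.01e-05). Beside Activin-A at 12 hrs, IFN-γ lowered *Scd2* (-0.49, edgeR adjusted p = 2.70e-11) and *Scd1* (-0.42, edgeR adjusted p = 2.28e-05), the latter from 290 ± 32.4 to 215 ± 15.8 CPM. The 2 were the only genes of the 10 called beside Activin-A at 12 hrs, where 9.62% of all genes were called, higher or lower. These calls of *Scd1* and *Scd2* at 12 hrs were made in every alternative. Beside Activin-A at 4 hrs *Scd2* was the 1 of 9 called, as lower, where 6.07% of all genes were called in either direction. It was at 647 ± 50.2 CPM with both factors and 761 ± 33.8 CPM with Activin-A. That call was lost without replicate 1 or 4 of both factors.

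Of 9 genes around the sterol sensor LXR, 4 had enough counts to be tested. *Nr1h2*, which encodes LXRβ, rose with IFN-γ at 12 hrs from 82.0 ± 5.41 to 123 ± 10.5 CPM (log2FC 0.58, edgeR adjusted p = 1.72e-05). *Abca1*, the cholesterol exporter that LXR induces, was lower with Activin-A at 12 hrs, at 30.1 ± 4.71 against 49.8 ± 11.6 CPM (-0.69, edgeR adjusted p = 0.00996), with overlapping wells, and was not called with DESeq2 (adjusted p = 0.0662) or without replicate 3 or 4 of the untreated wells or replicate 1 or 3 of the Activin-A wells. *Ch25h*, the cholesterol hydroxylase known as an interferon target, was below the filter and not tested. It had 0 to 1 counts per well in untreated cells at 4 hrs and 0 at 12 hrs, 0 in all Activin-A wells, 2 to 11 with IFN-γ at 4 hrs and 3 to 4 at 12 hrs, and 0 to 3 and 1 to 3 with both factors.

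*Lrp1*, an endocytic receptor that takes up lipoproteins, was higher with Activin-A at 12 hrs, at 451 ± 53.8 against 351 ± 37.7 CPM (log2FC 0.35, edgeR adjusted p = 0.000715), with overlapping wells. At 4 hrs its log2FC was 0.40 (edgeR adjusted p = 0.00552), but 0.22 (adjusted p = 0.173) without replicate 1 of Activin-A.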
